A study of Mus musculus with 4 samples.

Results

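The cytosolic ribosomal protein genes were examined in B16-F10 mouse melanoma cells cultured with and without recombinant Cdh1. Members were all array probes, control spots aside, whose RefSeq accession belongs to a gene with a ribosomal protein symbol such as Rpl5, Rps6, Rplp0 or Rpsa. The rule uses symbols and no measured value, though it was set with earlier results of these data known. They comprised 82 of the 23462 named genes and 145 of the 56605 probes on the array. Of the 82 genes, 76 were core genes, 46 of the large subunit and 30 of the small subunit. The other 6 were paralogues whose symbols end in l (Rpl3l, Rpl10l, Rpl32l, Rpl39l, Rps27l and Rps4l), and they are described apart from the core genes. The filter on dim probes kept 141 of the 145 probes, among them every probe that represents a core gene.

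Each cytosolic ribosome is built from a small 40S subunit, which reads the messenger, and a large 60S subunit, which joins the amino acids. Cells need nearly equal numbers of the core proteins, and in growing cells their messengers are among the most abundant. Most of these messengers begin with a C followed by a run of pyrimidines, the 5′ terminal oligopyrimidine (TOP) motif, through which the mTOR pathway controls their translation. Because that control acts on translation, protein output can change while the messenger level measured by an array does not. Ribosomal protein genes also have many processed pseudogenes, so that one probe may capture more than one transcript.

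B16-F10 is a pigmented mouse melanoma line. Control cells were grown in Dulbecco's modified Eagle medium with 10% fetal bovine serum and received no added protein. Treated cells had 100 ng/mL recombinant Cdh1 in the culture for 24 h, and cells of both groups were B16-F10. The labels give Cdh1 by its symbol, which is that of the adhesion protein E-cadherin, and do not state the species, form or source of the protein or what the control cells were given in its place. Each of the 2 sets, which the series text calls independent, held 1 control and 1 Cdh1 culture, so that each group had 2 arrays. Total RNA (100 ng) was labelled with Cy3 and hybridised to Agilent single-colour arrays, with 1 sample on each array.

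Between 59.3% and 61.3% of spots were well above background on the 4 arrays and no spot was saturated. All 8 melanocyte lineage markers were well above background on every array, and their summed log2 level lay between 10.40 and 10.65 in the control arrays and between 10.39 and 10.61 in the Cdh1 arrays. Of 12 markers of other cell types, 7 were tested and 6 were well above background on every array, with summed log2 levels of 0.18 to 0.44 in control and 0.33 to 0.40 in Cdh1 arrays. The leukocyte marker Ptprc, the macrophage marker Adgre1, the epithelial marker Epcam, the endothelial marker Cdh5 and the fibroblast marker Col3a1 did not pass the filter. The array number limits the precision throughout: with 2 arrays against 2, an exact two-sided permutation test cannot give a p below 0.333. The labels do not say more about the sets than that they were independent, so p-values measure the spread between these 4 samples. In such bulk RNA, fewer cells of a type and less RNA per cell cannot be told apart.

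A start-site window from RefSeq (build GRCm38.p6, 250 bases before the annotated start and 50 from it) was found for 56 of the 76 core genes, in 66 windows, and for 5 of the 6 paralogues. The windows below run from 15 bases before the annotated start to 15 bases from it, 5′ to 3′ on the gene's strand, and the capitals mark the pyrimidine run that opens at the start itself. They are shown because this run is the feature the TOP messengers have in common. The first 7 are core genes with the run. Rpl32l is a paralogue with it. Rpl24, Rpl37 and Rps27l lack it in the window and are shown because the expression results below turn on them.
Rpl15 (chr14:18270972-18271001, minus strand): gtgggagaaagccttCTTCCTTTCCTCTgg
Rpl28 (chr7:4792950-4792979, plus strand): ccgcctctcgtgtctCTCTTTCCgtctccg
Rpl35 (chr2:39005117-39005146, minus strand): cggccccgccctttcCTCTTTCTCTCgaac
Rpl38 (chr11:114668565-114668594, plus strand): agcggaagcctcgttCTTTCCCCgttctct
Rps6 (chr4:86857353-86857382, minus strand): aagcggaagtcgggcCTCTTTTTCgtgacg
Rps10 (chr17:27635230-27635259, minus strand): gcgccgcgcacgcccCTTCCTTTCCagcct
Rps18 (chr17:33955651-33955680, minus strand): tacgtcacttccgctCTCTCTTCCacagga
Rpl32l (chr10:20208424-20208453, plus strand): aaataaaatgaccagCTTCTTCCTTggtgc
Rpl24 (chr16:55966260-55966289, plus strand): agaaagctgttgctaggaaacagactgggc
Rpl37 (chr15:5116598-5116627, plus strand): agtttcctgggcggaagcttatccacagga
Rps27l (chr9:66946071-66946100, plus strand): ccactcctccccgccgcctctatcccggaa

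A run of at least 5 pyrimidines that opened with a C at the annotated start was present in 13 of the 66 core windows (19.7%), against 2.5% of all 32851 windows in the table. The count concerns annotated starts, and a start placed a few bases away from the true one hides the run, so it says nothing about the windows without it. Other short motifs were searched on both strands over the 300-base windows. The core of ETS factor sites, CGGAAG, was in 62.1% of the core windows and 16.9% of all windows, and the longer form CCGGAAGT, which overlaps it, in 16.7% and 3.9%. The palindrome CTCGCGAG was in 12.1% of the core windows and 0.9% of all. The letters AAGATGGC, found in sites of YY1, were in 10.6% and 2.7%. The TATA box TATAAA was in 9.1% of core windows and 13.6% of all, and the E-box CACGTG, the letters that MYC and MAX bind, in 12.1% and 7.2%. A pair of stretches of 90 bases directly upstream of the start shows the palindrome in capitals.
Rps6 (chr4:86857368-86857457, minus strand): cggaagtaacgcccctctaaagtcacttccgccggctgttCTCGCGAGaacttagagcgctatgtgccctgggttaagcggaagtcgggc
Rpl26 (chr11:68901476-68901565, plus strand): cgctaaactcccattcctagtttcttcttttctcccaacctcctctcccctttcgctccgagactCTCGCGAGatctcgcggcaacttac

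Across the core genes the messenger levels moved little with Cdh1. Levels are given as the log2 of the deposited processed signal minus the 75th percentile of the array, a scale on which probes of different genes cannot be ranked. The median difference, Cdh1 minus control, was -0.034 in set 1, where 68 of 76 core genes (89.5%) were lower with Cdh1. In set 2 it was 0.0041, where 36 (47.4%) were lower. Over all genes tested the medians were -0.017 and -0.010, with 57.5% and 54.4% lower. Over both sets the core median was -0.020, beside -0.014 for all 14454 genes tested. The mean difference lay within 0.1 on either side of 0 for 75 of 76 core genes (98.7%), against 77.2% of all genes. No core gene was called at an adjusted p under 0.05 by limma with Benjamini-Hochberg adjustment, and the background share was 0.0% of all genes. At an unadjusted p under 0.05 there were also 0 of 76, against a background of 1.11%. The lowest unadjusted p was 0.239, for Rpl37. The 95% confidence interval reached a median of 0.30 to either side of the difference, so that changes of up to about that size could not be told from 0 in a single gene. With the set number as a block, which pairs the cultures of a set, this median was 0.19 and 0 core genes were again called. Rpl37 then had an unadjusted p of 0.0215 and an adjusted p of 0.668 by limma, the only core gene at an unadjusted p under 0.05 (background 3.73%).

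The direction was shared between sets no more often than among all genes. Of the 76 core genes, 34 moved the same way in both sets (44.7%), against 51.3% of all genes tested: 31 were lower and 3 higher. Both Cdh1 arrays lay below both control arrays in 5 core genes, where the background share was 8.36%, and above both in 0, where it was 6.1%. The correlation between the set 1 and the set 2 difference was 0.432 over the 76 core genes, 0.05 over the 75 without Rpl37 and 0.187 over all genes tested, as a description, since genes share the 4 arrays and are not independent. Large- and small-subunit genes had similar medians: -0.019 for the 46 of the 60S subunit and -0.023 for the 30 of the 40S subunit. Their difference was not tested.

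The sign of the small median depended on the scaling, and its place relative to all genes turned in the 2 settings with quantile normalization. Centring arrays on their median lowered every gene by 0.044, which took the core median to -0.064 and that of all genes to -0.058. The authors' deposited table raised every gene by 0.024, which gave 0.0044 for the core genes and 0.010 for all genes. The core median thus stayed 0.0056 below that of all genes in both. It was 0.0050 after quantile normalization and 0.0025 after normexp background correction with quantile normalization, against -0.0089 and -0.0072 for all genes. Leaving out the set 1 control array turned the core median to 0.026, and leaving out the set 2 control array took it to -0.063. In each of these fits the control came from 1 set and the Cdh1 arrays from both. The set difference thus entered the median, which does not measure the Cdh1 difference alone. The set 1 control array held the highest of the 4 values in 58 of the 76 core genes (76.3%), against 34.4% of all genes tested.

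**Figure D1:**
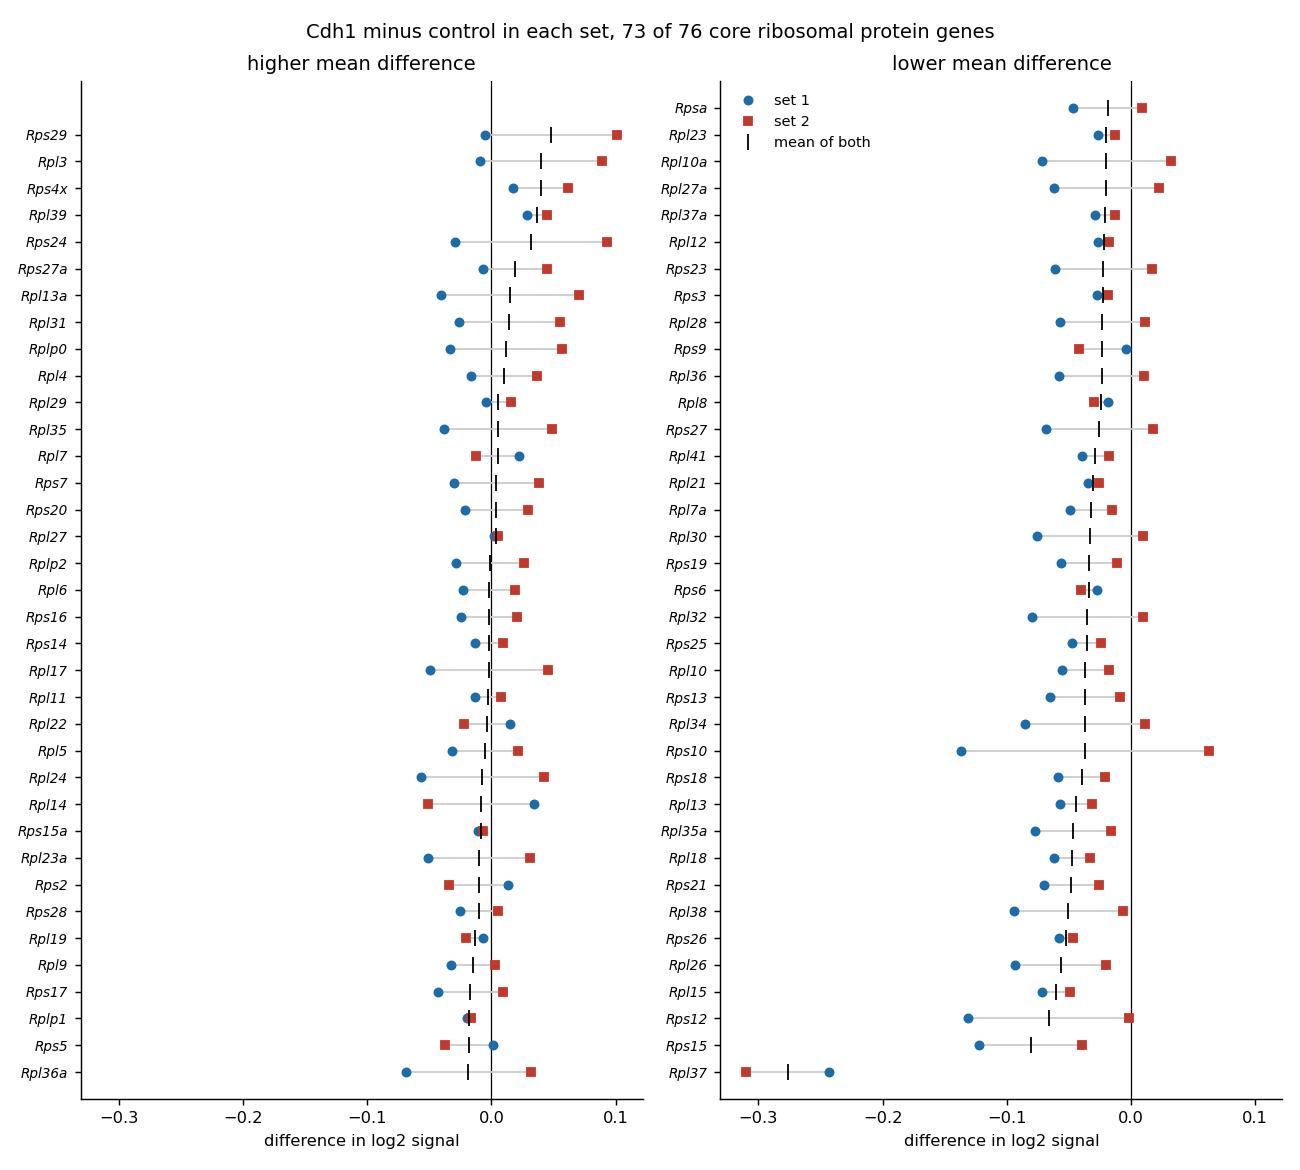
Difference in log2 signal, Cdh1 minus control, for 73 of the 76 core genes (1 line a gene, ordered by the mean of both sets). Circles are set 1, squares set 2 and ticks their mean. In set 1, 65 of the 73 genes lie left of 0, in set 2, 34, and Rpl37 stands apart at -0.24 and -0.31.

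By their brightest probe, only 3 core genes were higher with Cdh1 in both sets. Rps4x, the X-linked gene of a small-subunit protein, had levels of 6.72 and 6.73 in control and Cdh1 of set 1 and 6.53 and 6.59 in set 2. Both Cdh1 values were above their own control, by less than the sets differed. The mean difference was 0.040 (SE 0.13, 95% interval -0.32 to 0.40, adjusted p = 1 by limma). The second Rps4x probe, of similar level, was lower with Cdh1 in both sets, by -0.048 in set 1 and -0.012 in set 2. Rpl39, whose protein lines the exit tunnel of the large subunit, had 7.59 and 7.62 in set 1 and 7.43 and 7.48 in set 2. Its brightest probe gave a mean of 0.037, and the mean over all 5 of its probes was -0.017. Rpl27, a large-subunit gene, differed by 0.0020 and 0.0049, and its sign also turned with the mean of its probes (-0.023). All 3 mean differences were smaller than the 0.044 by which centring on the median lowers every gene alike, so their sign is relative to the scale used.

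The core genes furthest down in both sets were Rpl37, Rps15, Rps12 and Rpl15. Rpl37, a large-subunit gene with 1 probe on the array, had levels of -3.63 and -3.87 in set 1 and -3.94 and -4.25 in set 2. Both Cdh1 values were below their own control, and the set 2 control was below the set 1 Cdh1 value, so the groups overlapped. The mean difference was -0.28 (SE 0.20, 95% interval -0.83 to 0.28, unadjusted p = 0.239 and adjusted p = 1 by limma). Its probe was dim, though well above background on all 4 arrays, and without it the core differences ran from -0.081 to 0.048. On the set 1 control array every other core gene was at 5.78 or above. Rpl37rt, a gene of similar name with 1 probe, had 8.266 and 8.226 in set 1 and 8.021 and 8.035 in set 2. The Cdh1 differences of Rpl37rt were -0.040 and 0.014. Whether the dim probe reports the level of the Rpl37 messenger was not tested.

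Rps15, a protein of the head of the small subunit, had 6.36 and 6.24 in set 1 and 6.22 and 6.18 in set 2. The Cdh1 value was lower in each set, with a mean of -0.081 (SE 0.12). Rps12, also of the head, gave -0.13 in set 1 and -0.0015 in set 2, so that nearly the whole of its mean of -0.066 came from set 1. Rpl15, a large-subunit gene whose window opens with the longest of the runs shown above, had 6.65 and 6.58 in set 1 and 6.56 and 6.51 in set 2. Its differences, -0.071 and -0.049, had one sign and a similar size, and the adjusted p was 1 for each of these 4 genes by limma.

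Genes chosen for their role gave the same picture. The stalk proteins recruit the elongation factors to the large subunit. Rplp0 had levels of 7.99, 7.95, 7.80 and 7.86 in set 1 control, set 1 Cdh1, set 2 control and set 2 Cdh1. Its difference was -0.033 in set 1 and 0.057 in set 2. Rplp2 went from -0.028 to 0.026 in the same way. Rplp1 gave -0.020 and -0.017, the only stalk gene with one sign in both sets. None of the 3 had a 95% interval of its mean difference narrower than 0.29 to either side.

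Rpl5 and Rpl11 carry the 5S RNA into the large subunit and, when free of ribosomes, bind Mdm2. Rpl5 had levels of 5.94, 5.91, 5.91 and 5.93, in the same order of arrays. Rpl11 had 7.98, 7.97, 7.87 and 7.87. The mean differences were -0.0051 for Rpl5 and -0.0026 for Rpl11, both well inside the spread between arrays of one group.

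Among the small-subunit genes, Rpsa, also known as the laminin receptor precursor, had levels of 7.83, 7.79, 7.74 and 7.75. Its difference was -0.046 in set 1 and 0.0089 in set 2. Rps27a, which encodes ubiquitin fused to a small-subunit protein, had a mean difference of 0.019, with -0.0067 and 0.044 in the sets. Rpl13a, a large-subunit protein with a second role in silencing of inflammatory messengers, gave -0.041 and 0.070. Rpl41, one of the shortest proteins known, had 8.21, 8.17, 8.05 and 8.03 and was lower with Cdh1 in both sets, with a mean of -0.029 (SE 0.12). Set 2 minus set 1 was -0.062 for Rpsa and -0.15 for Rpl41, larger in size than either Cdh1 difference of the gene. It was 0.037 for Rps27a and -0.028 for Rpl13a, smaller than the Cdh1 difference of each in set 2.

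**Figure D2:**
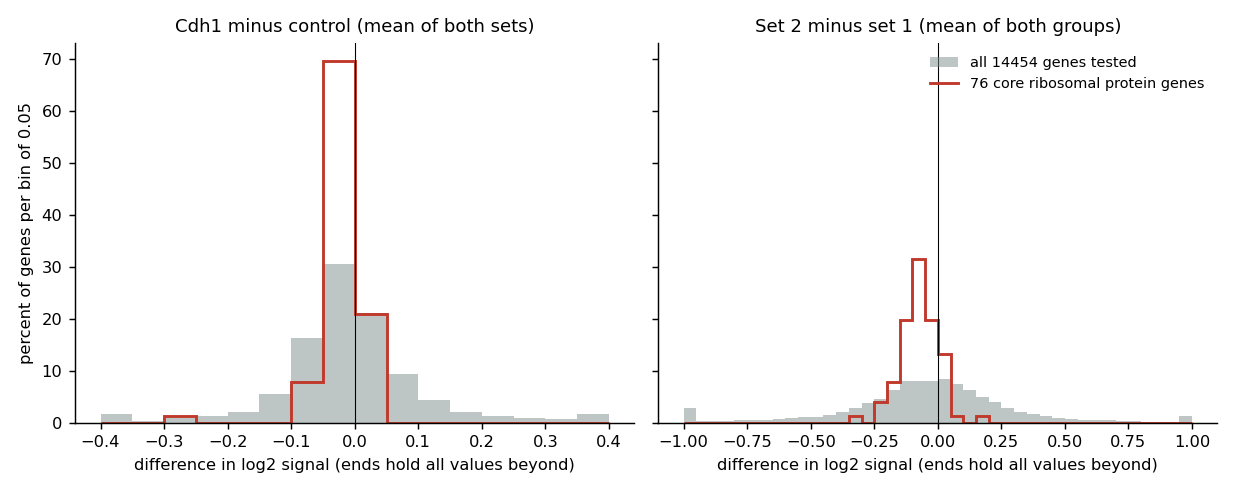
Percent of genes in bins of 0.05 on the log2 scale, for the 76 core genes (line) and all 14454 genes tested (grey). The left panel shows Cdh1 minus control and the right panel set 2 minus set 1; the core genes form a narrow peak in both, with SDs of 0.039 and 0.078 against 0.18 and 0.41 for all genes.

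The narrow spread of the core genes came with bright signal. The SD of the mean Cdh1 difference was 0.039 over the core genes, 0.025 without Rpl37, and 0.18 over all genes tested. Over the 348 other genes whose probes were at least as bright as the dimmest core probe, Rpl37 aside, it was 0.044. The median Cdh1 difference of those 348 genes was -0.034 in set 1, as in the core genes, with 74.4% lower. In set 2 their median was -0.010, with 58.9% lower. How much of the narrow spread comes with brightness alone was not tested. The range from the lowest to the highest of the 4 arrays had a median of 0.11 in core genes, 0.17 in those 348 genes and 0.26 in all genes. Summed over linear signal, the core probes took 6.07% of the signal of the set 1 control array, 6.04% of set 1 Cdh1, 5.96% of set 2 control and 6.02% of set 2 Cdh1. The share was thus slightly lower with Cdh1 in set 1 and slightly higher in set 2.

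The array carried 59 member probes in 10 copies, which measure the technical error within an array. These probes covered 47 genes, 46 of them core. Over the 59 probes the SD between spots of one array had a median of 0.036 on the log2 scale and ranged from 0.016 to 0.092. The SE of a difference between a pair of arrays that follows from the spots had a median of 0.017 in each set. In set 1, 42 of the 59 probes were lower with Cdh1 by more than 2 such SE, 0 were higher and 17 were within. In set 2, 12 were lower, 4 higher and 43 within. The spot error does not hold the error of an array's scale, which moves all probes together, nor that between cultures. Among the 241 other probes in 10 copies, 135 were lower and 7 higher in set 1, and 42 lower and 33 higher in set 2.

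Of the 59 probes, 9 were lower by more than 2 SE of the spots in both sets, among them 2 probes of Rpl18 and 1 each of Rpl3, Rpl15, Rpl36, Rps6 and Rps18. This was 15.3% of the member probes, against 16 of the 241 other probes in 10 copies (6.64%), and the difference between these shares was not tested. Rps18, a protein of the head of the small subunit, gave the largest, -0.12 in set 1 and -0.053 in set 2, by 1 of its 2 such probes. The other Rps18 probe was -0.026 in set 2, within 2 SE (SE 0.019). For Rps6, the small-subunit protein that S6 kinase phosphorylates, 1 probe was -0.041 in set 2 and another 0.016. For Rpl36, too, only 1 of 2 probes was lower in both sets, and the other gave 0.010 in set 2. Probes of one gene could thus differ by more than their spot error. Represented by its 10-copy probe, the core set had a median difference of -0.024 over 46 genes, with 44 of them lower, beside 58.6% of all genes tested. By set, the median was -0.0505 in set 1, with 43 of 46 lower (57.5% of all genes). In set 2 it was -0.0005, with 23 lower and 23 higher.

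**Figure D3:**
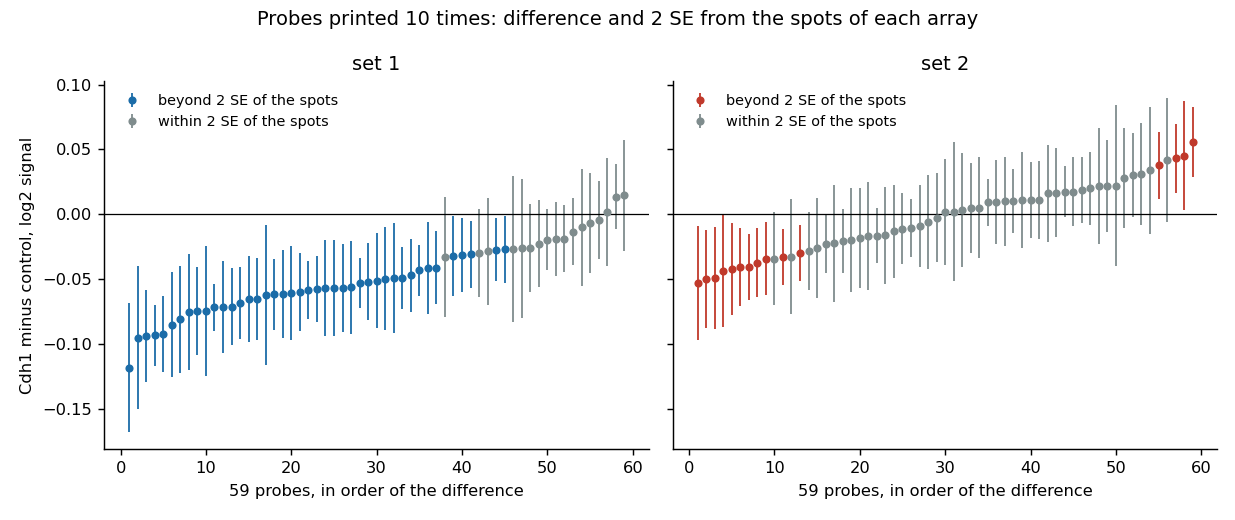
Cdh1 minus control in log2 signal for the 59 member probes printed 10 times, ordered within each set; bars are 2 SE from the spots of the arrays compared, and grey marks differences within them. In set 1, 42 probes are below 0 by more than the bar and 0 above; in set 2, 12 are below and 4 above.

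The sets differed more than the groups. The median of set 2 minus set 1 over the core genes was -0.078, with 64 of 76 genes (84.2%) lower in set 2. Over all genes tested it was -0.029, with 54.5% lower. Over the 348 bright genes described above it was -0.10, further down than in the core genes, with 73.0% lower. Taken by group, the core median was -0.094 in control cells and -0.048 in cells with Cdh1. The core genes ranged from -0.34 to 0.17, with an SD of 0.078, against 0.41 over all genes and 0.17 over the 348 bright genes. By limma with Benjamini-Hochberg adjustment 0 of 76 core genes were called, where the background was 17.5% of all genes. The lowest adjusted p was 0.071, for Rpl24. At an unadjusted p under 0.05, 9 core genes were lower, against a background of 22.9%. Both set 2 arrays lay below both set 1 arrays in 54 of 76 core genes (background 40.7%) and above both in 4 (background 31.5%). Of the 348 bright genes, 219 lay below and 65 above in this way. The differences of the core genes were ordered alike in control and Cdh1 arrays, with a correlation of 0.82 over 76 genes, 0.802 without Rpl37 and 0.767 over all genes tested, as a description.

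These counts and signs rest on the settings. The core median between sets was 0.0088 after quantile normalization and 0.018 with normexp, where that of all genes was -0.0066 and -0.0039, so that the core genes turned from below to above all genes. With the authors' deposited table it was -0.030, beside 0.018 for all genes, and with median centring -0.064, beside -0.016. In these the core genes stayed 0.049 below all genes, since such scalings shift every gene alike. Without the set 1 control array it was -0.045. With a prior that follows intensity and is robust to outliers, 25 core genes were called between sets, 24 of them lower, where 41.0% of all genes were. With normexp the called genes were Rpl24 at -0.19 and Rps2 at 0.21. Without any 1 of the 4 arrays, or without the filter on dim probes, no gene of the array was called between sets, so every call between sets named here rests on that filter and on all 4 arrays. With the group as a block in the fit, 876 genes were called between sets, and of the genes named below as called only Myc, Tyr and Col1a1 were among them.

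**Figure D4:**
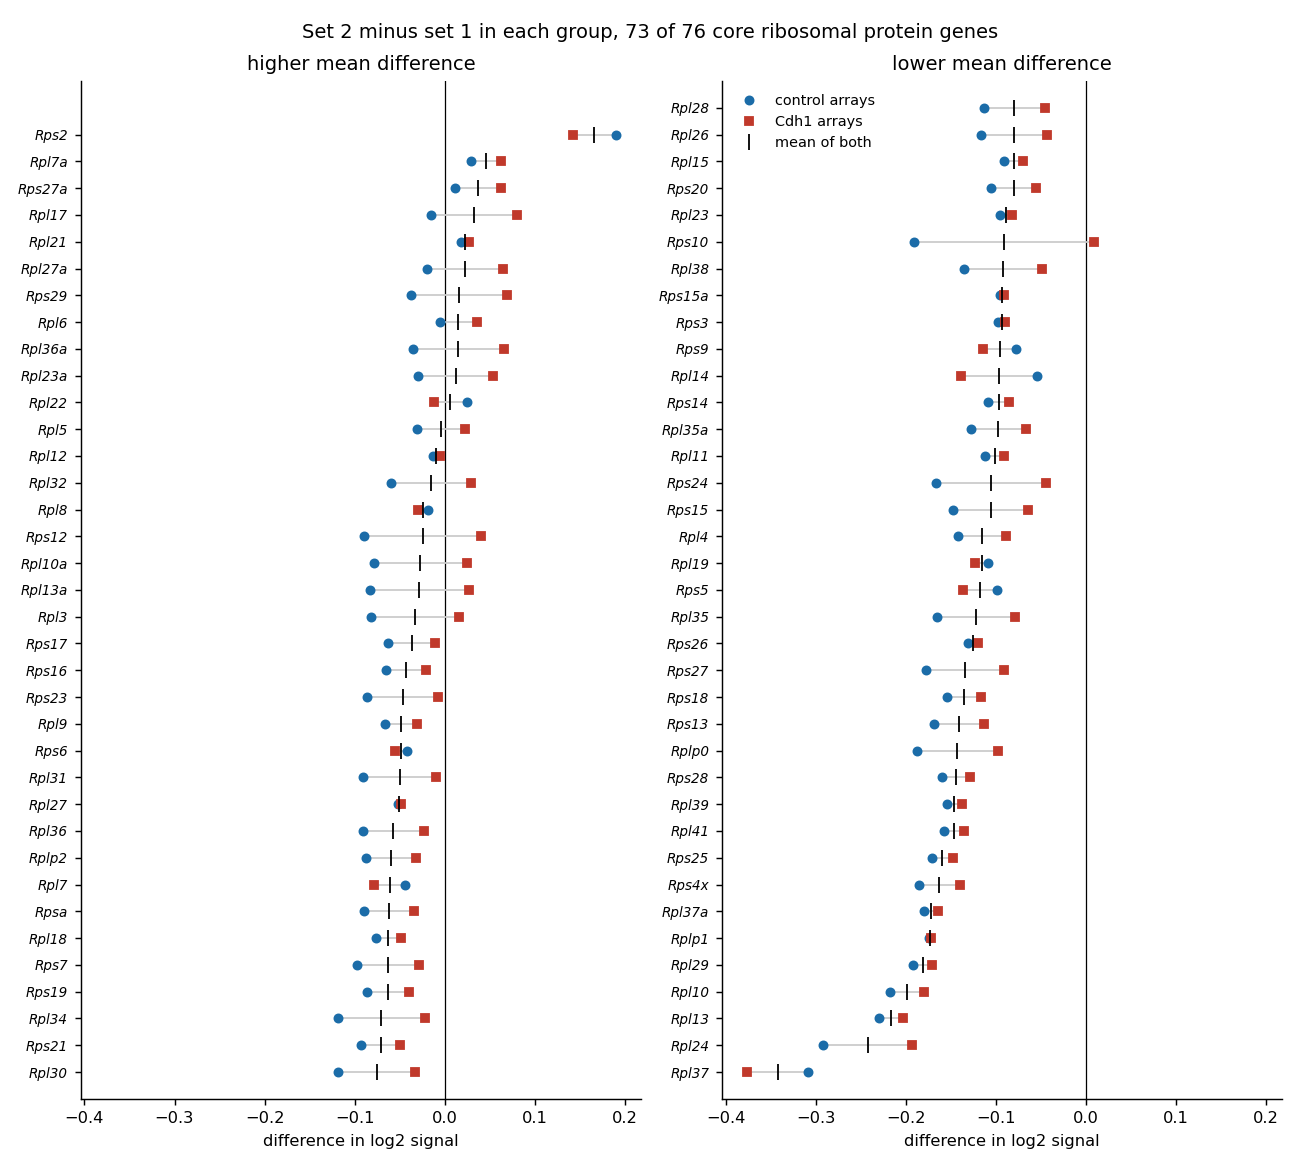
Difference in log2 signal, set 2 minus set 1, for 73 of the 76 core genes (1 line a gene, ordered by the mean). Circles compare the control arrays, squares the Cdh1 arrays and ticks mark the mean; 62 of the 73 means lie below 0, and Rps2 at 0.17 and Rpl37 at -0.34 are the ends.

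Rps2, a protein at the entry of the messenger channel, was the core gene furthest up in set 2. Its levels were 6.59 and 6.60 in control and Cdh1 of set 1 and 6.78 and 6.74 in set 2. The sets did not overlap, and the second probe of the gene moved alike, by 0.14 against 0.17 for the brightest. The difference of 0.17 (SE 0.053) had an unadjusted p of 0.0364 and an adjusted p of 0.118 by limma. Among the next core genes up were Rpl7a of the large subunit at 0.046, Rps27a at 0.037 and Rpl17, a protein at the exit tunnel, at 0.033. None of these 3 differences exceeded its SE, and Rps27a turned to -0.0087 with the mean of its probes.

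Among the genes furthest down in set 2, after Rpl37 at -0.34 by its dim probe, were Rpl24, Rpl13 and Rpl10, all of the large subunit. Rpl24, a protein at the face between the subunits and the gene of the Belly spot and tail mouse mutant, had 6.81 and 6.76 in set 1 and 6.52 and 6.56 in set 2. Both set 2 arrays were below both set 1 arrays. The difference was -0.24 (SE 0.057, adjusted p = 0.071 by limma) and -0.26 by its second probe. Rpl13 had 7.84 and 7.78 in set 1 and 7.61 and 7.58 in set 2, a difference of -0.22, and its 3 probes ran from -0.24 to -0.17. Rpl10, which joins the large subunit late in its maturation, had 8.17 and 8.11 in set 1 and 7.95 and 7.93 in set 2, a difference of -0.20 (SE 0.055). The sets did not overlap for any of these 3 genes, and the adjusted p lay between 0.071 and 0.0937.

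Between sets, probes of one gene mostly moved together. In the 45 genes with more than 1 tested probe, the range of the set difference over the probes of a gene had a median of 0.028 and was under 0.1 in 38. All probes of a gene had one sign between sets in 38 of the 45 genes, and all were lower in set 2 in 30. For the Cdh1 difference the median range was 0.031, and 44 genes were under 0.1. With Cdh1, however, 139 of the 141 member probes lay within 0.1 of 0. A small range there does not show that probes moved together, and it can hold both signs, as for Rps4x (-0.030 to 0.040).

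Of the 141 member probes, 2 were called between sets, where the background was 14.0% of probes, and both departed from the other probes of their gene. They were singled out after their values were seen. The Rps24 probe designed to NM_011297 had levels of 6.54 and 6.39 in control and Cdh1 of set 1 and 5.62 and 5.70 in set 2. It was thus lower in both set 2 arrays, by -0.81 on the log2 scale (SE 0.080, adjusted p = 0.0182 by limma). The Rps24 probe for NM_207634 gave -0.024 and that for NM_207635 -0.11. Rps24, a small-subunit gene that is mutated in some patients with Diamond-Blackfan anaemia, makes alternatively spliced messengers, and the 3 accessions are separate RefSeq transcripts. Which transcripts each probe binds cannot be read from the files used here, so whether an isoform differed between sets was not tested.

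Rps20, a small-subunit gene, had a dim probe with levels of -0.71 and -0.72 in set 1 and -1.05 and -1.10 in set 2. Both set 2 arrays were lower, and the difference was -0.36 (SE 0.054, adjusted p = 0.0345 by limma). The 2 bright probes of Rps20 gave -0.063 and -0.081. With the group as a block in the fit, the adjusted p of the Rps24 probe was 0.0517 and that of the Rps20 probe 0.0732.

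**Figure D5:**
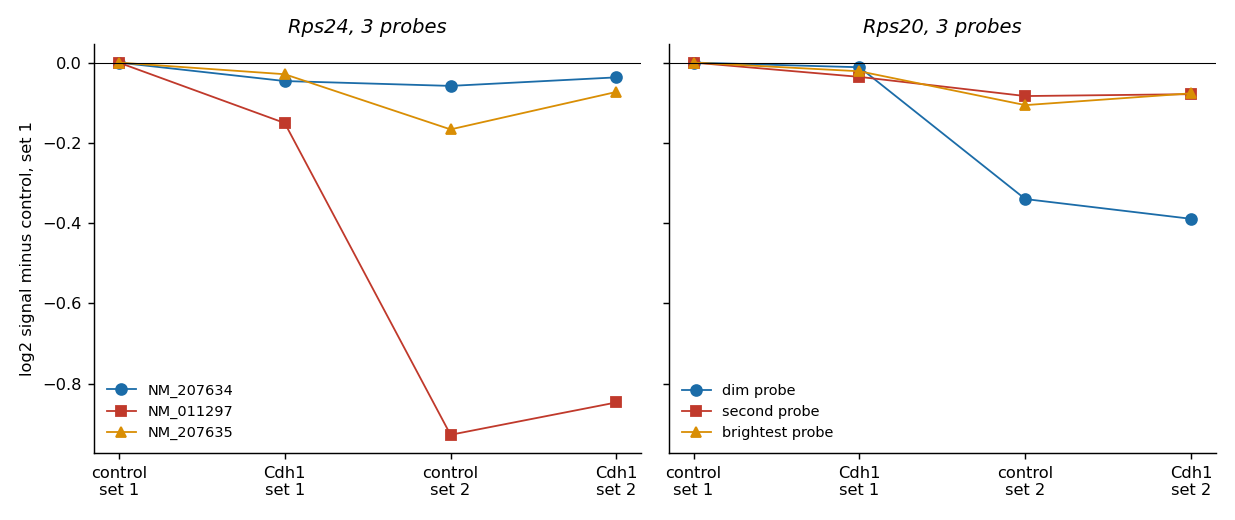
Log2 signal of each Rps24 probe (left, named by the transcript it was designed to) and each Rps20 probe (right) on the 4 arrays, relative to the set 1 control array. The NM_011297 probe and the dim Rps20 probe fall in set 2 while the other probes of both genes stay within 0.17 of the set 1 control.

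The paralogues fell into a bright and a dark group. Rpl3l, a form of striated muscle, Rpl10l and Rpl39l, forms known from testis, and Rps4l were not well above background on any of the 4 arrays and were not tested. Rps27l, a paralogue of Rps27 induced by p53, had levels of 6.51, 6.58, 6.30 and 6.28 in set 1 control, set 1 Cdh1, set 2 control and set 2 Cdh1. It was lower in both set 2 arrays, by -0.25 (SE 0.056, adjusted p = 0.0653 by limma), and by -0.29 with its second probe. Its Cdh1 difference was 0.065 in set 1 and -0.021 in set 2. Rpl32l had 7.63, 7.57, 7.63 and 7.65, with a Cdh1 difference of -0.066 in set 1 and 0.020 in set 2 and a set difference of 0.041 (SE 0.057). A probe of a paralogue may also bind the messenger of its near copy, and this was not tested.

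Another 3 genes encode ribosomal parts under other names. Rps3a1 encodes a small-subunit protein, Fau encodes a ribosomal protein fused to a ubiquitin-like protein, and Rack1 encodes a signalling scaffold on the small subunit. Their Cdh1 differences were -0.017, -0.10 and -0.056 in set 1, in that order. In set 2 they were 0.030, 0.062 and 0.085. None kept its sign, and 0 of 3 were called with Cdh1 (background 0.0%). All 3 were lower in set 2, with a median of -0.11, beside -0.11 for the translation factors and -0.078 for the core genes.

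The core genes were also grouped by the start-site run, with the limit given above that a misplaced start hides it. The 13 core genes with the run in a window had a median Cdh1 difference of -0.034 and a median set difference of -0.092. The 43 with a window and no run had -0.020 and -0.080, and the 20 without a window -0.018 and -0.035. The difference between these groups of genes was not tested. Another 19 genes encode translation factors and related proteins with TOP messengers. Their median Cdh1 difference was -0.020, with 13 of 19 lower (58.6% of all genes). Their median set difference was -0.11, with 16 of 19 lower (54.5% of all genes). None of them was called with Cdh1 (background 0.0%) or between sets (background 17.5%).

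The mitochondrial ribosomal proteins, encoded in the nucleus and assembled in the organelle, are a family of like function in another compartment. Their median Cdh1 difference over 78 genes was -0.036, with -0.046 in set 1 and -0.037 in set 2, and 70 of 78 were lower. Over all genes tested, 58.6% were lower. None of the 78 was called with Cdh1 (background 0.0%). Between sets their median was 0.051, opposite in sign to that of the core genes on this scaling. The core median turned positive with quantile normalization (0.0088) and with normexp (0.018). Of the 78 mitochondrial genes, 6 were called between sets (background 17.5%), 1 lower and 5 higher. Mrpl49 was higher in set 2 by 0.34 (SE 0.056, adjusted p = 0.0393 by limma), and Mrpl4 was lower by -0.33 (SE 0.061, adjusted p = 0.0475).

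The machinery that makes ribosomes was measured beside its products. The 40 ribosome assembly factors had a median Cdh1 difference of -0.032, with 34 of 40 lower (58.6% of all genes) and 0 called (background 0.0%). By set, the median was -0.010 in set 1, with 22 of 40 lower (57.5% of all genes). In set 2 it was -0.051, with 34 lower (54.4% of all genes). Between sets the median was 0.036, and 2 of 40 were called, against a background of 17.5%. Nop56, a component of the particles that methylate ribosomal RNA, had 5.61 and 5.62 in set 1 and 5.97 and 5.89 in set 2, a rise of 0.31 (SE 0.058, adjusted p = 0.0487 by limma). Utp4, a factor of the small-subunit processome, had 2.73 and 2.69 in set 1 and 2.38 and 2.26 in set 2, a difference of -0.39 (SE 0.069, adjusted p = 0.045). The 20 genes of ribosomal RNA transcription had a median Cdh1 difference of -0.023 with 0 called (background 0.0%). Between sets 2 of 20 were called (background 17.5%): Taf1c, a subunit of the selectivity factor of RNA polymerase I, at -0.42, and Cd3eap, a subunit of the polymerase itself, at 0.35.

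Of 16 regulators of ribosome production, 0 were called with Cdh1 (background 0.0%) and 2 between sets, where the background was 17.5%. Myc, a transcription factor that drives ribosome production, had levels of 0.99 and 1.08 in set 1 and 2.30 and 2.11 in set 2. It was higher in both set 2 arrays, by 1.17 (SE 0.091, adjusted p = 0.0137 by limma), while 64 of 76 core genes were lower there on this scaling. Tsc1, an inhibitor of the mTOR pathway, was lower by -0.29 (SE 0.052, adjusted p = 0.0445). Among the 8 genes of the 5S particle and the p53 pathway, 0 were called with Cdh1 (background 0.0%) and 2 between sets (background 17.5%). Cdkn1a, the p53 target that halts the cell cycle, had 3.95 and 3.90 in set 1 and 3.31 and 3.44 in set 2, a difference of -0.55 (SE 0.071, adjusted p = 0.0274 by limma). Mdm2, the ligase that Rpl5 and Rpl11 bind, differed by -0.33 (SE 0.053, adjusted p = 0.0382). Rps27l, given above and not of this list, differed in the same direction without a call. Of the 8 listed genes 5 were lower and 3 higher in set 2, among the latter Mdm4 at 0.14 and Rpf2 at 0.18. Trp53 itself was at -0.057.

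Other genes also moved between the sets. Of the 8 melanocyte markers 4 were called, all lower in set 2 (background 10.5% called lower), among them Tyr, the pigment enzyme tyrosinase, at -1.77 (SE 0.095, adjusted p = 0.00923 by limma). Of the 7 tested markers of other cell types, Col1a1 was called at -1.22, which is 1 of 7 beside the background of 17.5%. None of these 5 was called with Cdh1 (background 0.0%). The part of such differences between the cultures in the set difference of the ribosomal protein genes was not tested.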

How the data were processed

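RNA of 4 B16-F10 cultures was measured on Agilent arrays. The deposited scanner files hold spot intensity (the processed signal, corrected for background by Agilent Feature Extraction 12.0.3.1, per the file headers and the submitters' processing notes). The authors' deposited table of processed values equals the same signal divided by 1 factor per array. The median of its columns was 30.25, 31.19, 30.45 and 32.47 for control 1, Cdh1 1, control 2 and Cdh1 2. Why those factors were chosen is not given in the sources used here.

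Control spots and spots marked as outliers were left out and spots of a probe averaged. The log2 processed signal minus the 75th percentile of each array was fitted with limma 3.58.1 in R 4.3.3 (lmFit, eBayes) over the 32568 probes that both arrays of a group, control or Cdh1, showed well above background, with Benjamini-Hochberg adjustment over all of them. The same values were fitted for set 2 against set 1. Tables were made with Python 3.11.15 and pandas 2.3.3. A gene was represented by its brightest probe. Accessions were named through the RefSeq gene table, which gave 33767 of 35269 probes with a RefSeq accession a symbol. The fits were also run on simulated data with known changes, whose noise was independent and of equal size for all probes. Such data hold no pairing of arrays, so they say nothing on the precision reached with these arrays.

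Members, lists and tests were chosen with earlier results of these data known. Named core genes were those furthest up or down with Cdh1 among those with one direction in both sets (4 each way, of which only 3 rose), those furthest apart between sets (5 each way) and 10 chosen for their role. All paralogues and 3 ribosomal genes with other names were added. Results of some genes that this choice takes in are not reported here, while counts and medians of the core genes cover all 76. Set numbers pair the samples by the series text, and the deviations of paired arrays correlated at 0.677 over all probes. Alternatives were quantile normalization, normexp (offset 50), median centring, the deposited table, other filters on dim probes, leaving out the last 24 rows of spots, the mean of probes, another prior, the replicate block and leaving out each array. Added after the data were seen were keeping outlier spots, the probe in 10 copies and leaving out Rpl37. Population outliers were already left out of the values reported.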

Additional observations from a re-analysis of the deposited data

Results flagged for a closer look

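Values below are Cdh1 minus control on the log2 scale, in which set 1 and set 2 had opposite signs with 1 pair of arrays in each set, so that the difference between sets was not tested. The figure after each name is the set 2 difference minus the set 1 difference. For the median of the 76 core genes it was 0.038 (-0.034 in set 1 and 0.0041 in set 2). For the median of the 3 ribosomal genes with other names it was 0.12, and for the median of the 20 genes of ribosomal RNA transcription -0.030. Among the stalk and 5S particle genes it was 0.090 for Rplp0, 0.055 for Rplp2, 0.053 for Rpl5 and 0.021 for Rpl11. It was 0.055 for Rpsa, 0.051 for Rps27a and 0.11 for Rpl13a. Of the paralogues, Rpl32l gave 0.086 and Rps27l -0.086. Rps3a1 gave 0.047, Fau 0.16 and Rack1 0.14. Of all genes tested, 51.3% had one sign in both sets, so opposite signs were common.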

How the results depend on the processing

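No core gene was called with Cdh1 under any alternative, and with the replicate block (the set number) the count stayed 0, with a lowest adjusted p of 0.668 and an unchanged median of -0.020. The core median with Cdh1 moved by more than the spread between genes with median centring (-0.064, with 67 genes of one direction in both sets, since it lowers every gene by 0.044), and between -0.063 and 0.026 when each array was left out. With 1 array left out, 1 group comes from a single set, so the set difference enters that comparison. The core median between sets was 0.0088 with quantile normalization, 0.018 with normexp and -0.030 with the authors' table, which raised every gene by 0.047, and ran from -0.098 to -0.045 without each array. Leaving out the last 24 rows takes out the brightest Rps24 probe, which lies there. The count of core genes called between sets was 2 with normexp (31.8% of all genes), 1 without those rows (Rps24, beside 18.3%) and 25 with the other prior (41.0%). It was 0 without each array in turn, where 0 of all genes were called against 2532 in the main setting. Over all genes that count was 0 without the filter, 4591 with normexp, 5932 with the other prior and 876 with the group as a block. Besides these settings, calls between sets were lost with median centring by Tsc1, Nop56, Utp4, Cd3eap, Mdm2, Mrpl4, Mrpl49 and the dim Rps20 probe, with the authors' table by Tsc1, Utp4, Taf1c, Mdm2 and Mrpl4, with the mean of probes by Cd3eap and Mrpl4 and with quantile normalization by Mrpl4, at adjusted p values that over all alternatives ran from 0.0503 to 0.227 by limma.

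Single genes with Cdh1 that changed sign were all small. Median centring and the authors' table shift every gene alike, by -0.044 and 0.024, so that sign changes there concern the scale and not the single gene. With median centring they were Rps4x -0.0045, Rpl39 -0.0075, Rpl27 -0.041, Rplp0 -0.032, Rps27a -0.025, Rpl13a -0.029, Rps27l -0.022, Rps3a1 -0.038 and Rack1 -0.030. With the mean of probes they were Rpl39 -0.017, Rpl27 -0.023, Rps3a1 -0.028, Rack1 -0.0077 and, between sets, Rps27a -0.0087. With quantile normalization they were Fau 0.010, Rpl32l 0.0026, Rplp1 0.0037, Rpsa 0.0045, Rpl11 0.015, Rpl5 0.026 and Rplp2 0.0054. With normexp they were Rplp1 0.012, Fau 0.061, Rpl5 0.036, Rpl11 0.0071 and Rpl32l 0.00026. With the authors' table they were Rpl11 0.022, Rpl32l 0.0014, Rplp2 0.023, Fau 0.0045, Rplp1 0.0062, Rpsa 0.0055 and Rpl5 0.019. Without the last 24 rows Rack1 was -0.030. Leaving out each array gave ranges across 0: Rps4x -0.053 to 0.13, Rpl39 -0.040 to 0.11, Rpl27 -0.022 to 0.029, Rplp0 -0.082 to 0.11, Rplp1 -0.11 to 0.069, Rplp2 -0.045 to 0.042, Rpl5 -0.021 to 0.010, Rpl11 -0.059 to 0.053, Rpsa -0.063 to 0.026, Rps27a -0.012 to 0.050, Rpl13a -0.027 to 0.057, Rpl41 -0.11 to 0.050, Rpl32l -0.065 to 0.019, Rps27l -0.13 to 0.17, Rps3a1 -0.054 to 0.067, Fau -0.12 to 0.082 and Rack1 -0.074 to 0.10. Where no reason is given the cause was not tested.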
